A study of Mus musculus with 74 samples.

Results

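The 10 genes described here belong to iron handling or to the macrophages of the splenic red pulp, and all 10 were found in a deposited table of counts for 49480 gene symbols: the iron exporter gene Slc40a1, the red pulp regulator Spic, the heme-degrading enzyme gene Hmox1, the transferrin receptor gene Tfrc, the divalent metal transporter genes Slc11a1 and Slc11a2, the ferritin subunit genes Fth1 and Ftl1, and the splenic macrophage genes Cd5l and Vcam1. They were grouped by name for their roles in iron recycling and in the red pulp, with earlier results of these data known. RNA was measured by Smart-seq2, a full-length cDNA method for small inputs, in 74 libraries of 1000 sorted cells each. The C57BL/6J mice were 12 or 3 months old and had been given MC38 colon carcinoma cells under the skin, and tumor and spleen were both taken on day 10, so the spleens are those of tumor-bearing mice as well. The 5 sorted types were macrophages (CD45+CD11b+F4/80+), dendritic cells (CD45+CD11b+CD11c+MHCII+), regulatory T cells (CD45+TCRb+CD4+CD25+), conventional CD4 T cells (CD45+TCRb+CD4+CD25-) and CD8 T cells (CD45+TCRb+CD8+), each from tumor and spleen at 12 and 3 months, which makes 20 groups. A group held 4 libraries, except that 3 groups of dendritic cells (tumor at 12 months and spleen at both ages) held 3, as did the conventional CD4 T cells from spleens of 3-month mice, while those from tumors of 3-month mice held 2. All mice were female apart from 4 dendritic cell libraries, 1 in each dendritic cell group. A sorted population is a mixture, so fewer cells of a kind and less RNA per cell cannot be told apart in any value below.

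Macrophages of the splenic red pulp engulf old red blood cells, break down their heme with heme oxygenase 1, the product of Hmox1, and return the iron to plasma through ferroportin, the product of Slc40a1. The transcription factor Spi-C, encoded by Spic, is needed for this cell type, which also carries VCAM1 and secretes the CD5-like protein (AIM) encoded by Cd5l. Iron that is not exported is stored in ferritin, a shell of heavy (Fth1) and light (Ftl1) subunits, while cells that need iron take up transferrin through the receptor encoded by Tfrc and move the metal out of endosomes through the transporters encoded by Slc11a2 (DMT1) and, in the phagosome of macrophages, Slc11a1 (NRAMP1). Splenic red pulp macrophages are known for high F4/80 and little CD11b, so a gate on both markers need not hold all of them.

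Several of these transcripts carry iron-responsive elements, short hairpins bound by the iron regulatory proteins when iron is low: in the 5′ UTR the binding blocks translation, and in the 3′ UTR of Tfrc it protects the message from decay. They are shown because a ferritin or ferroportin message counted by RNA-seq can thus be translated or silent, whereas for Tfrc the message itself is the regulated quantity. UTRs of GENCODE M21 transcripts (build GRCm38, the same as mm10) were searched on the transcript strand for C, 5 bases, CAGTGN and 5 bases that pair with the 5 before the loop (G-T pairs allowed). Such a match was found in the 5′ UTR of 31 of 20899 genes (0.148%) and in the 3′ UTR of 129 of 21022 genes (0.614%). Each 27-base match is written 5′ to 3′ on the transcript strand, with the 6-base loop in capitals.
Fth1 5′ UTR, chr19:9982733-9982759, plus strand: tcctgcttcaaCAGTGCttgaacggaa
Ftl1 5′ UTR, chr7:45459780-45459806, minus strand: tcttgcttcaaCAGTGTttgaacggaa
Slc40a1 5′ UTR, chr1:45925466-45925492, minus strand: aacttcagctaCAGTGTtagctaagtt
Tfrc 3′ UTR, chr16:32631220-32631246, plus strand: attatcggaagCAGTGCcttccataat
Tfrc 3′ UTR, chr16:32631599-32631625, plus strand: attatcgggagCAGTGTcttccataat
Tfrc 3′ UTR, chr16:32631664-32631690, plus strand: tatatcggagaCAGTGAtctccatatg
Tfrc 3′ UTR, chr16:32631711-32631737, plus strand: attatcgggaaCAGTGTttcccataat
The 4 Tfrc matches lie in 1 UTR and the other genes shown have 1 each. The pattern asks for 5 unbroken pairs, so hairpins with a bulge or mismatch there are missed. A gene without a match, such as Slc11a2, may thus still carry such an element, and Tfrc may carry more than those shown. A match is a description of sequence only, and whether any of these sites was occupied was not measured.

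Library totals ran between 1652812 and 9115858 counts, with a median of 4679409.5. Defining markers separated the myeloid from the T cell sorts: Csf1r, the receptor of the macrophage growth factor M-CSF, was between 2804 and 3387 CPM (a gene's share of a library's counts, per 1000000 counts) in tumor macrophages and between 1978 and 3128 CPM in spleen macrophages, and at or below 7.65 CPM in every T cell library. It was also between 686 and 1487 CPM in tumor dendritic cells and between 109 and 237 CPM in spleen dendritic cells. The CD25- sort still held regulatory T cell markers: in tumor conventional CD4 T cells Foxp3 lay between 76.1 and 354 CPM and Il2ra, which encodes CD25, between 158 and 318 CPM, and in spleen they lay between 21.2 and 79.9 CPM and between 14.0 and 58.2 CPM. Some libraries stood apart and touch results below. Replicate 2 of the tumor dendritic cells stood out for 12 macrophage markers, which summed to 25734 CPM in the 12-month library and to 23810 CPM in the 3-month library, while the other 5 tumor dendritic libraries lay between 5131 and 11307 CPM. Spleen macrophages held 10 of 10 neutrophil markers, with a summed level between 5572 and 41295 CPM, whereas tumor macrophages summed to between 184 and 1124 CPM. Replicates 1 and 4 of spleen conventional CD4 T cells at 3 months had 8.84% and 11.9% of their counts in ribosomal protein genes, against 3.91% to 4.64% in the other 5 spleen libraries of that type. For 2 spleen dendritic libraries (replicates 3 and 4 at 3 months) the title and another label give different ages, and the title was followed.

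**Figure D1:**
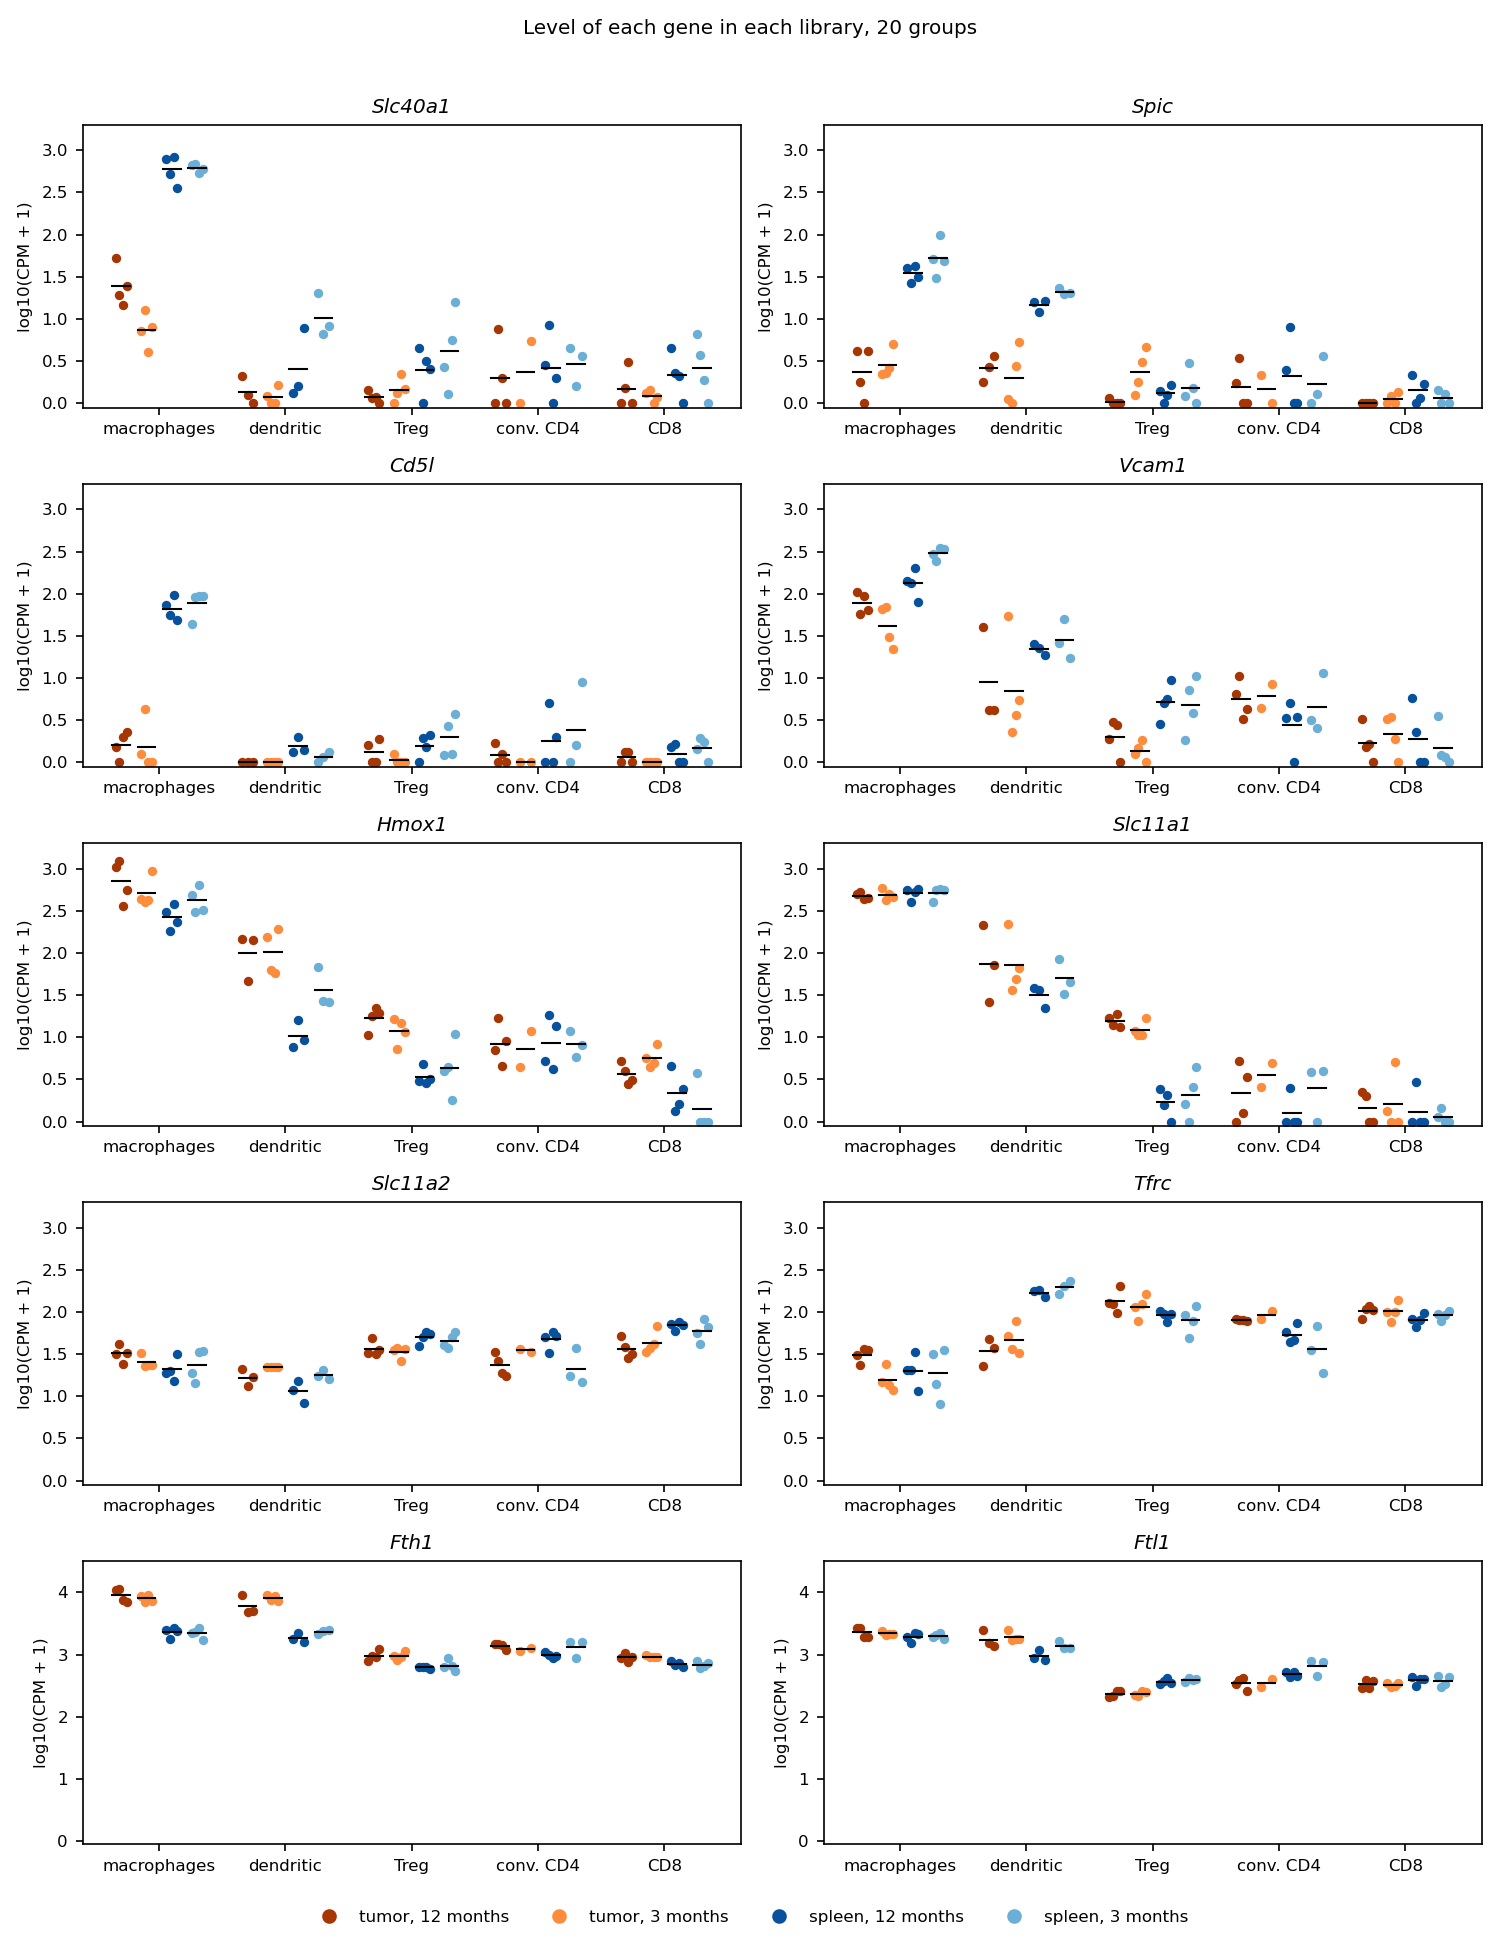
Level of each of the 10 genes in each of the 74 libraries, as log10(CPM + 1), by sorted cell type. Points are libraries, colored by tissue and age, and black lines are group means on the plotted scale. Slc40a1, Spic, Cd5l and Vcam1 are highest in spleen macrophages, Fth1 is highest in tumor macrophages and tumor dendritic cells, and Tfrc is highest in spleen dendritic cells.

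The comparison of tumor with spleen asked how these genes differ between the 2 sites within a sorted type, averaged over the ages. In macrophages 8 of the 10 genes passed the threshold (4 higher, 4 lower in tumor), where 51.7% of all genes tested did (23.9% higher, 27.8% lower). In dendritic cells 7 of 9 tested members passed (4 higher, 3 lower), against 47.1% of all genes (24.4% higher, 22.7% lower). Among regulatory T cells 7 of 8 passed (4 higher, 3 lower), against 53.5% (25.9% higher, 27.6% lower). Among conventional CD4 T cells 2 of 9 passed (1 higher, 1 lower), against 27.2% (16% higher, 11.2% lower), and in CD8 T cells 4 of 7 passed (3 higher, 1 lower), against 42.1% (22.5% higher, 19.6% lower). The threshold is an adjusted p under 0.05 in edgeR's quasi-likelihood test with Benjamini-Hochberg adjustment over all genes tested, and all fold changes below come from that fit, as log2(tumor over spleen) with a standard error (SE). Because tissue moved so many genes, these shares do not set the members apart from the rest of the table. The fits scale libraries by TMM, and with library totals alone, an alternative chosen after seeing the data, fold changes of tumor over spleen were lower: the median over all genes was -0.28 in place of -0.06 in macrophages, -0.37 in place of -0.04 in dendritic cells and -0.29 in place of -0.05 in regulatory T cells. The genes called then split into 2136 higher and 4776 lower in macrophages (3072 and 3582 with TMM), 2147 and 5149 in dendritic cells (3408 and 3175) and 2455 and 5298 in regulatory T cells (3452 and 3686). Of the members, Ftl1 and Slc11a2 in macrophages, Slc11a2 in dendritic cells and Tfrc in CD8 T cells then lost their call, and Slc11a2 in regulatory T cells gained one. Members left out of a fit had too few counts: Cd5l in dendritic cells, Spic and Cd5l in regulatory T cells, Spic in conventional CD4 T cells, and Spic, Slc11a1 and Cd5l in CD8 T cells.

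**Figure D2:**
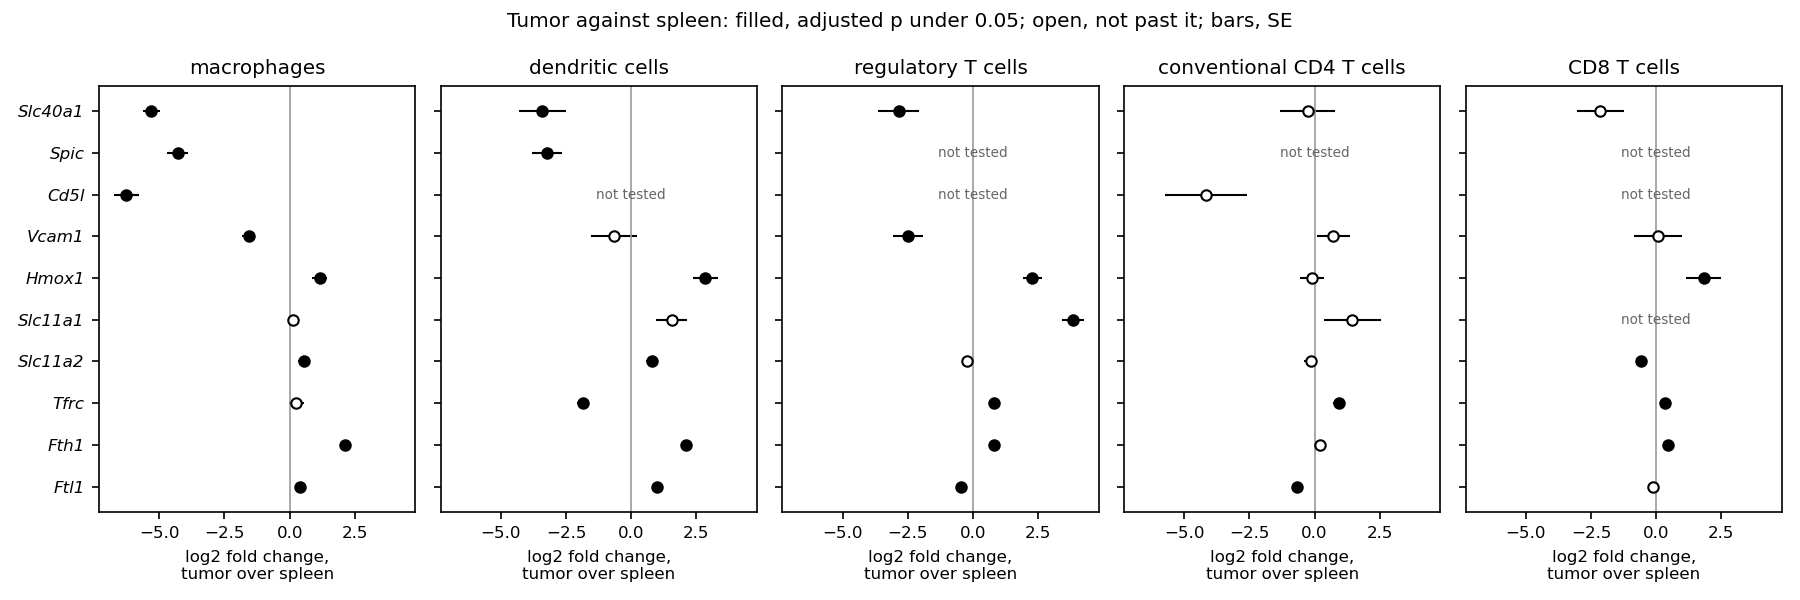
Log2 fold change of tumor over spleen for the 10 genes in the 5 sorted types, with SE bars. Filled points passed an adjusted p of 0.05 and open points did not. Slc40a1, Spic and Cd5l lie far to the left in macrophages, at -5.31, -4.3 and -6.27, while Fth1 lies at 2.14 in macrophages and 2.10 in dendritic cells.

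The export gene and the 3 red pulp genes all fell in tumor macrophages. Slc40a1 was at 52.5, 18.1, 13.6 and 23.3 CPM in tumor macrophages at 12 months and at 6.11, 11.8, 3.07 and 7.03 CPM at 3 months. In spleen macrophages it was at 798, 526, 832 and 358 CPM at 12 months and at 664, 687, 532 and 603 CPM at 3 months. The tissues did not overlap, and the highest tumor library was well under the lowest spleen library. The mean was 16.9 ± 15.8 CPM in tumor and 625 ± 155 CPM in spleen (SD, n = 8 each), and the log2 fold change was -5.31 ± 0.33 (SE; edgeR adjusted p = 1.21e-09).

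Spic, the red pulp regulator, was at 3.12, 0.799, 0 and 3.19 CPM in tumor macrophages at 12 months and at 1.22, 1.31, 1.65 and 4.06 CPM at 3 months. In spleen macrophages it was at 39.5, 25.5, 41.6 and 30.8 CPM at 12 months and at 50.4, 29.3, 97.2 and 48.2 CPM at 3 months. The tissues were again apart, and the log2 fold change was -4.3 ± 0.40 (SE; edgeR adjusted p = 6.74e-08). The highest Spic value, in spleen replicate 3 at 3 months, came from the library with the most erythroid marker counts of its sort, at a summed 233 CPM against 8.3 to 29.3 CPM in the other 7 spleen macrophage libraries. The part of that marker level in the Spic value was not tested.

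Cd5l, which encodes a secreted protein of tissue macrophages, was at 0.520, 0, 1.01 and 1.28 CPM in tumor macrophages at 12 months and at 0.244, 3.27, 0 and 0 CPM at 3 months. In spleen macrophages it was at 72.7, 54.4, 95.7 and 48.0 CPM at 12 months and at 42.8, 89.4, 93.0 and 92.2 CPM at 3 months. No tumor library came near the lowest spleen library, and the log2 fold change of Cd5l was -6.27 ± 0.49 (SE; edgeR adjusted p = 1.48e-08). In tumor, 5 of the 8 libraries held a Cd5l count.

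Vcam1, which encodes an adhesion molecule, fell less and its tissues overlapped. It was at 103, 56.6, 93.5 and 63.0 CPM in tumor macrophages at 12 months and at 64.8, 68.1, 29.5 and 20.8 CPM at 3 months. In spleen macrophages it was at 140, 133, 203 and 79.2 CPM at 12 months and at 292, 244, 347 and 343 CPM at 3 months. Tumor replicates 1 and 3 at 12 months lay above the lowest spleen library. The log2 fold change of Vcam1 was -1.57 ± 0.24 (SE; edgeR adjusted p = 4.02e-05). The neutrophil markers moved with the tissue in the same sort. So did 9 B cell markers, with sums between 9.46 and 47.3 CPM in tumor and between 932 and 3373 CPM in spleen. The part of these markers in the values of Slc40a1, Spic, Cd5l and Vcam1 was not tested.

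The same genes were lower outside spleen macrophages, with medians of at most 6.17 CPM in dendritic and T cells other than for Spic and Vcam1 in spleen dendritic cells. Spic in dendritic cells was at 0.781, 1.72 and 2.65 CPM in tumor at 12 months and at 0.110, 0, 1.77 and 4.29 CPM in tumor at 3 months. The spleen libraries held 15.0, 11.1 and 15.4 CPM at 12 months and 22.2, 18.5 and 19.2 CPM at 3 months. The dendritic tissues were apart, and Spic fell with a log2 fold change of -3.22 ± 0.58 (SE; edgeR adjusted p = 0.000405). Macrophage markers ran the other way in dendritic cells, with sums between 5131 and 25734 CPM in tumor and between 1137 and 1917 CPM in spleen. The 9 B cell markers ran the same way as Spic, with sums between 15.3 and 41.1 CPM in tumor and between 653 and 3960 CPM in spleen. So did 8 plasma cell markers, between 379 and 628 CPM in tumor and between 1769 and 8375 CPM in spleen. The part of these markers in the Spic values was not tested.

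Slc40a1 in dendritic cells lay between 0 and 1.09 CPM in tumor (median 0.219) and between 0.322 and 19.5 CPM in spleen (median 6.17), ranges that overlap. It fell with a log2 fold change of -3.41 ± 0.91 (SE; edgeR adjusted p = 0.00639), a call that was lost without the 2 libraries of conflicting age labels (-2.10, adjusted p = 0.255) and without spleen replicate 1 at 12 months (-2.40). Vcam1 in dendritic cells was at 38.9, 3.20 and 3.22 CPM in tumor at 12 months and at 53.5, 1.27, 2.65 and 4.45 CPM in tumor at 3 months. Its spleen values were 24.6, 21.9 and 17.7 CPM at 12 months and 25.3, 49.4 and 16.3 CPM at 3 months. The 2 high tumor values belonged to the macrophage-rich replicate 2 of each age. With all libraries the Vcam1 log2 fold change was -0.66 ± 0.87 (SE; edgeR adjusted p = 0.568), and without those 2 libraries it was -2.72 ± 0.38 (adjusted p = 1.94e-05). Cd5l had no count in any of the 7 tumor dendritic libraries and at most 0.976 CPM in the 6 spleen libraries.

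In T cells the export and red pulp genes were near the limit of detection, where 3 counts of a library of the median size correspond to less than 1 CPM. In regulatory T cells Slc40a1 lay between 0 and 1.25 CPM in tumor (median 0.255) and between 0 and 15.1 CPM in spleen (median 1.92), with a log2 fold change of -2.85 ± 0.78 (SE; edgeR adjusted p = 0.00436). Spleen replicate 4 at 3 months held the 15.1 CPM, and without it the fold change of Slc40a1 was -2.23 (adjusted p = 0.0232). The same library had the highest summed macrophage and monocyte markers of the spleen regulatory T cells, at 88.9 and 221 CPM, where the other 7 reached 58.9 and 105 CPM, and their part was not tested. Vcam1 in the same cells lay between 0 and 1.98 CPM in tumor (median 0.653) and between 0.835 and 9.68 CPM in spleen (median 4.3), with a log2 fold change of -2.48 ± 0.58 (SE; edgeR adjusted p = 0.00118). Both pairs of ranges overlapped. In conventional CD4 and CD8 T cells no member of this quartet passed: the log2 fold changes of Slc40a1 were -0.25 ± 1.05 and -2.14 ± 0.92 (SE; edgeR adjusted p = 0.890 and 0.0636), and Cd5l in conventional CD4 T cells had -4.17 ± 1.58 (adjusted p = 0.0509). The Cd5l value rests on spleen libraries with a median of 0.610 CPM.

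Heme oxygenase 1 RNA was higher in tumor in 4 of the 5 types. In macrophages Hmox1 was at 1051, 1215, 355 and 561 CPM in tumor at 12 months and at 434, 405, 428 and 931 CPM in tumor at 3 months. In spleen it was at 304, 179, 379 and 231 CPM at 12 months and at 482, 304, 637 and 325 CPM at 3 months. The tissues overlapped, since spleen replicates 1 and 3 at 3 months lay above several tumor libraries. The Hmox1 log2 fold change was 1.16 ± 0.29 (SE; edgeR adjusted p = 0.00312).

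In dendritic cells Hmox1 was at 146, 45.6 and 142 CPM in tumor at 12 months and at 152, 61.7, 57.3 and 188 CPM in tumor at 3 months. The spleen libraries held 6.60, 14.8 and 8.23 CPM at 12 months and 66.7, 25.6 and 25.3 CPM at 3 months. Spleen replicate 3 at 3 months reached into the tumor range, and it is 1 of the 2 with conflicting age labels. The Hmox1 log2 fold change was 2.83 ± 0.48 (SE; edgeR adjusted p = 0.000862), and it was 2.59 (adjusted p = 0.0698) when those 2 libraries were given the other age. The 12 macrophage markers summed to between 5131 and 25734 CPM in tumor and between 1137 and 1917 CPM in spleen dendritic cells. The part of these markers in the dendritic Hmox1 values was not tested.

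Regulatory T cells held little Hmox1, between 6.30 and 21.2 CPM in tumor (median 14.5) and between 0.782 and 9.90 CPM in spleen (median 2.56). It rose with a log2 fold change of 2.28 ± 0.35 (SE; edgeR adjusted p = 1.29e-05), and 1 spleen library, replicate 4 at 3 months, lay within the tumor range. CD8 T cells held less, between 1.76 and 7.24 CPM in tumor (median 3.66) and between 0 and 3.57 CPM in spleen (median 0.474), with a log2 fold change of 1.83 ± 0.67 (SE; edgeR adjusted p = 0.0310). That call was lost in 7 fits that each left out a single library. In conventional CD4 T cells Hmox1 lay between 3.45 and 15.7 CPM in tumor and between 3.20 and 17.5 CPM in spleen (log2 fold change -0.11 ± 0.47, SE; edgeR adjusted p = 0.896).

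Among the uptake and endosomal genes, Tfrc moved in opposite directions in dendritic and T cells. In dendritic cells it was at 21.7, 46.5 and 36.2 CPM in tumor at 12 months and at 51.0, 35.6, 76.4 and 31.4 CPM in tumor at 3 months. Its spleen values were 178, 183 and 148 CPM at 12 months and 162, 204 and 231 CPM at 3 months. The tissues were apart and Tfrc fell, with a log2 fold change of -1.85 ± 0.22 (SE; edgeR adjusted p = 1.62e-05). Of 22 cell cycle genes tested beside it in dendritic cells, 1 rose and 5 fell, where 24.4% of all genes were higher and 22.7% lower. Their median log2 fold change was -0.20 against -0.04 over all genes. The part of cell cycling in the dendritic Tfrc values was not tested.

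Among regulatory T cells Tfrc lay between 77.2 and 205 CPM in tumor (median 122) and between 47.8 and 118 CPM in spleen (median 91.0), ranges that overlap, with a log2 fold change of 0.79 ± 0.18 (SE; edgeR adjusted p = 0.000985). Among conventional CD4 T cells it was at 81.2, 78.7, 79.2 and 78.0 CPM in tumor at 12 months and at 82.1 and 101 CPM in tumor at 3 months. In spleen it was at 56.1, 42.6, 45.1 and 72.5 CPM at 12 months and at 34.8, 67.1 and 18.0 CPM at 3 months. These tissues were apart, and the log2 fold change of Tfrc was 0.93 ± 0.21 (SE; edgeR adjusted p = 0.00137). The ribosome-rich spleen libraries held the lowest 2 values, and without them it was 0.58 ± 0.19 (adjusted p = 0.0414). In CD8 T cells Tfrc lay between 74.4 and 138 CPM in tumor and between 66.1 and 100 CPM in spleen, with a log2 fold change of 0.36 ± 0.12 (SE; edgeR adjusted p = 0.0206) that did not pass without spleen replicate 2 at 12 months (0.31) or without tumor replicate 4 at 3 months (0.25), nor with library totals in place of TMM (0.27, adjusted p = 0.0690). Of the same 22 cell cycle genes, 17 rose in regulatory T cells (median log2 fold change 1.13 against -0.05 over all genes, of which 25.9% were higher), 6 in conventional CD4 T cells (0.86 against 0.04, with 16% higher) and 22 in CD8 T cells (2.32 against -0.01, with 22.5% higher), and none fell. The part of cell cycling in the Tfrc values, and that of the Foxp3 and Il2ra levels in the conventional CD4 sort, was not tested. In macrophages Tfrc was between 10.8 and 35.3 CPM in tumor and between 7.10 and 33.9 CPM in spleen, with a log2 fold change of 0.25 ± 0.29 (SE; edgeR adjusted p = 0.483).

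Slc11a1, the phagosomal transporter, was highest in macrophages at both sites. In macrophages it lay between 422 and 589 CPM in tumor (median 477) and between 395 and 568 CPM in spleen (median 548), and its log2 fold change of 0.13 ± 0.12 did not pass (SE; edgeR adjusted p = 0.362). The sign of that value turned with the scaling: with library totals, as in the CPM values, it was -0.09 (adjusted p = 0.488). In regulatory T cells, at a far lower level, Slc11a1 was at 15.9, 12.9, 17.7 and 12.2 CPM in tumor at 12 months and at 11, 9.61, 9.59 and 15.7 CPM in tumor at 3 months. The spleen libraries held 1.43, 0.571, 1.08 and 0 CPM at 12 months and 0.626, 0, 1.56 and 3.38 CPM at 3 months. The tissues were apart and the log2 fold change of Slc11a1 was 3.84 ± 0.44 (SE; edgeR adjusted p = 2.34e-07).

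Summed levels of marker lists named for other cells were read beside that rise of Slc11a1. The 12 macrophage markers summed to between 30.9 and 99.4 CPM in tumor regulatory T cells and between 46.3 and 88.9 CPM in spleen, ranges that overlap. The 10 neutrophil markers summed to between 69.7 and 237 CPM in tumor and between 1.30 and 7.05 CPM in spleen, where Ly6g was at 0, and the 7 monocyte markers to between 1481 and 3142 CPM in tumor and between 48.8 and 221 CPM in spleen. In tumor conventional CD4 and tumor CD8 T cells Slc11a1 averaged 2.05 and 0.834 CPM. The monocyte list summed to 1310 to 3138 CPM and 2121 to 5436 CPM in these 2 sorts. The neutrophil list summed to 2.35 to 13.6 CPM and 0 to 3.73 CPM. A summed list does not tell which cells its RNA came from. The part of the monocyte and neutrophil markers in the Slc11a1 values was not tested. In dendritic cells Slc11a1 was highest in the macrophage-rich tumor replicate 2, with 212 CPM in the 12-month and 218 CPM in the 3-month library, while the other tumor libraries lay between 24.9 and 70.9 CPM. Its log2 fold change there was 1.56 ± 0.59 (SE; edgeR adjusted p = 0.0553) with all libraries and 0.52 ± 0.36 (adjusted p = 0.276) without those 2.

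Slc11a2, the endosomal metal transporter, differed modestly and in every type its tissues overlapped. In macrophages it lay between 21.6 and 41.1 CPM in tumor and between 13.4 and 33.5 CPM in spleen, with a log2 fold change of 0.54 ± 0.21 (SE; edgeR adjusted p = 0.0377). The call of Slc11a2 in macrophages was lost in 7 fits that left out 1 library and with library totals in place of TMM (0.31, adjusted p = 0.231). In dendritic cells it lay between 12.1 and 21.3 CPM in tumor and between 7.41 and 19.3 CPM in spleen, with 0.78 ± 0.20 (SE; edgeR adjusted p = 0.00441), a call lost with library totals (0.45, adjusted p = 0.0726) and with the other age label (0.63, adjusted p = 0.111). In CD8 T cells it ran the other way, between 27.5 and 67.4 CPM in tumor and between 41.1 and 81.7 CPM in spleen, with -0.59 ± 0.17 (SE; edgeR adjusted p = 0.00577). The values in regulatory and conventional CD4 T cells were -0.22 ± 0.14 and -0.15 ± 0.24 (adjusted p = 0.211 and 0.688), and with library totals Slc11a2 passed in regulatory T cells (-0.46, adjusted p = 0.00891).

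The ferritin subunits moved unequally. In macrophages Fth1 was at 10846, 11163, 7690 and 6928 CPM in tumor at 12 months and at 8872, 7067, 9154 and 7414 CPM in tumor at 3 months. Its spleen values were 2514, 1750, 2690 and 2360 CPM at 12 months and 2252, 2345, 2630 and 1704 CPM at 3 months. Every tumor library was above every spleen library, and the log2 fold change of Fth1 was 2.14 ± 0.14 (SE; edgeR adjusted p = 2.67e-10). In dendritic cells Fth1 was at 8982, 4800 and 4952 CPM in tumor at 12 months and at 9065, 7694, 8795 and 7277 CPM in tumor at 3 months. In spleen it was at 1762, 2212 and 1608 CPM at 12 months and at 2102, 2356 and 2451 CPM at 3 months. These tissues were apart too, with a log2 fold change of 2.10 ± 0.15 (SE; edgeR adjusted p = 6.32e-08), and with 1.91 ± 0.10 without the macrophage-rich replicate 2 of each age (adjusted p = 1.49e-10). The remaining tumor dendritic libraries also held more macrophage marker RNA than any spleen dendritic library. The part of these markers in the dendritic Fth1 values was not tested.

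Fth1 rose in 2 T cell types by a smaller amount. Among regulatory T cells it lay between 793 and 1225 CPM in tumor (median 928) and between 552 and 867 CPM in spleen (median 632), with a log2 fold change of 0.81 ± 0.11 (SE; edgeR adjusted p = 2.19e-06). In CD8 T cells it lay between 768 and 1062 CPM in tumor (median 907) and between 610 and 792 CPM in spleen (median 698), with 0.47 ± 0.08 (SE; edgeR adjusted p = 6.56e-05). Both pairs of ranges overlapped at their edges. In conventional CD4 T cells Fth1 lay between 1137 and 1497 CPM in tumor and between 889 and 1619 CPM in spleen, with 0.21 ± 0.15 (SE; edgeR adjusted p = 0.345). Without the 2 ribosome-rich spleen libraries, which held the highest Fth1 of that sort, the value was 0.56 (adjusted p = 0.00336).

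Ftl1 rose in dendritic cells and fell in 2 T cell types, while in macrophages its rise depended on the scaling. In macrophages Ftl1 was at 2672, 2692, 1948 and 1950 CPM in tumor at 12 months and at 2426, 2048, 2153 and 2172 CPM in tumor at 3 months. The spleen libraries held 1922, 1514, 2235 and 2163 CPM at 12 months and 1937, 2067, 2219 and 1797 CPM at 3 months. The tissues overlapped, and the log2 fold change of Ftl1 was 0.41 ± 0.11 (SE; edgeR adjusted p = 0.00542), but 0.18 with library totals in place of TMM (adjusted p = 0.152). In dendritic cells it lay between 1358 and 2523 CPM in tumor (median 1770) and between 809 and 1660 CPM in spleen (median 1229), with 1.00 ± 0.15 (SE; edgeR adjusted p = 7.05e-05). The macrophage markers were higher in every tumor dendritic library than in any spleen one, and their part in the dendritic Ftl1 values was not tested.

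In regulatory T cells Ftl1 was at 204, 217, 256 and 259 CPM in tumor at 12 months and at 224, 213, 256 and 247 CPM in tumor at 3 months. Its spleen values were 328, 374, 412 and 350 CPM at 12 months and 364, 425, 392 and 398 CPM at 3 months. Here the tissues were apart in the opposite direction from macrophages, with a log2 fold change of -0.46 ± 0.08 (SE; edgeR adjusted p = 6.24e-05). Among conventional CD4 T cells Ftl1 lay between 260 and 415 CPM in tumor and between 438 and 775 CPM in spleen, with -0.66 ± 0.16 (SE; edgeR adjusted p = 0.00332). Without the ribosome-rich spleen libraries that value was -0.33 (adjusted p = 0.144). In CD8 T cells Ftl1 had -0.12 ± 0.10 (SE; edgeR adjusted p = 0.361). Whether the effect of tissue differs between cell types was not tested for any gene. Named ferritin pseudogenes stayed low in the table, the highest being Ftl2-ps at 22.5 CPM, and how reads that match several copies were counted is not given in the sources used here.

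The ratio of Fth1 to Ftl1 was higher in tumor in every sorted type. It is a ratio of CPM values without a length correction, so it can be read between groups but not as a ratio of molecules. In macrophages it was 3.81 ± 0.33 in tumor and 1.15 ± 0.10 in spleen (SD, n = 8 each). In dendritic cells it was 3.93 ± 0.63 in tumor (SD, n = 7) and 1.82 ± 0.28 in spleen (SD, n = 6). In no sorted type did the tissues overlap: the lowest tumor ratio of macrophages was 3.41 and the highest spleen ratio 1.31, and in dendritic cells these were 3.10 and 1.99. Among regulatory T cells the ratio was 4.10 ± 0.44 in tumor and 1.70 ± 0.20 in spleen (SD, n = 8 each). In conventional CD4 T cells it was 3.86 ± 0.50 in tumor (SD, n = 6) and 2.04 ± 0.16 in spleen (SD, n = 7). The difference was smallest in CD8 T cells, with 2.78 ± 0.22 in tumor and 1.85 ± 0.19 in spleen (SD, n = 8 each). The ratio is a description of these libraries and was given no test.

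**Figure D3:**
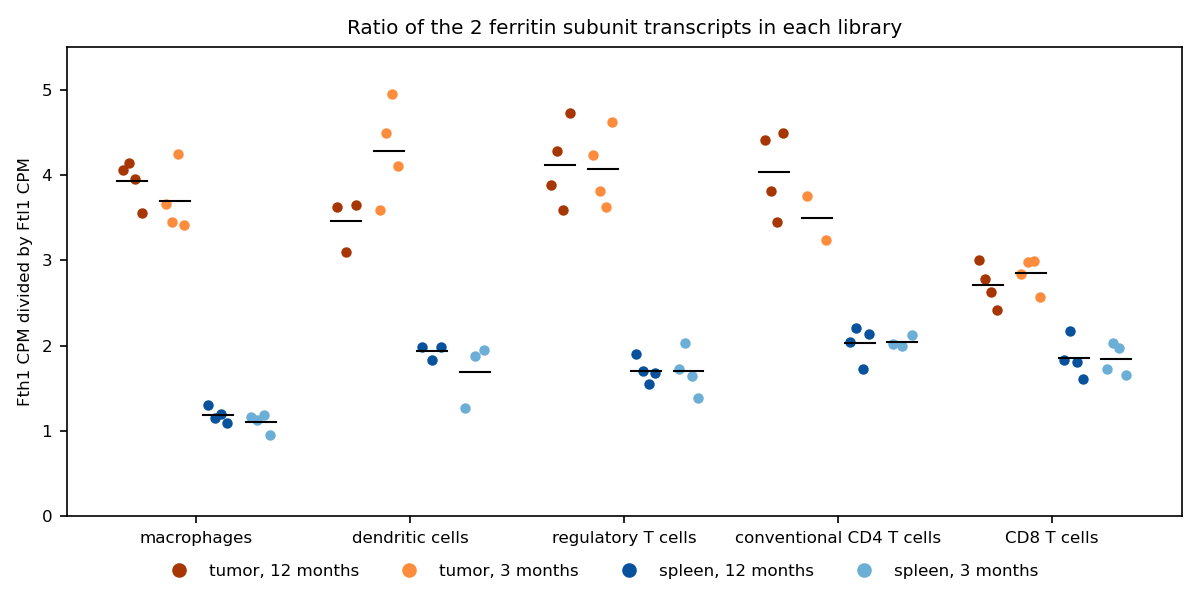
Fth1 CPM divided by Ftl1 CPM in each library, by sorted type, with tissue and age in color and black lines at group means. Tumor libraries lie above spleen libraries in every type, between 3.41 and 4.25 against 0.948 and 1.31 in macrophages and between 2.42 and 3.00 against 1.61 and 2.17 in CD8 T cells.

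Other genes of the pathways were read from lists written for this tissue. Of 18 iron transport and regulation genes tested in macrophages, 5 rose and 5 fell in tumor, with a median log2 fold change of -0.10 against -0.06 over all genes, of which 23.9% were higher and 27.8% lower. The metal importer gene Slc39a14 averaged 28.7 CPM in tumor and 1.62 CPM in spleen (log2 fold change 4.44 ± 0.41, SE; edgeR adjusted p = 4.31e-08). Slc39a8, its close relative, averaged 5.11 CPM in tumor and 1.36 CPM in spleen (2.15 ± 0.45), and Steap3, an endosomal ferric reductase gene, averaged 15.3 CPM in tumor and 8.19 CPM in spleen (1.11 ± 0.30). Lcn2, which encodes a siderophore-binding protein abundant in neutrophils, averaged 13.7 CPM in tumor and 1278 CPM in spleen (-6.86 ± 0.85), and Steap4, another metalloreductase gene, averaged 2.95 CPM in tumor and 57.3 CPM in spleen (-6.12 ± 0.62). Slc25a37, the mitochondrial importer mitoferrin 1, averaged 50.7 CPM in tumor and 107 CPM in spleen (-0.90 ± 0.14). The 2 most abundant genes that did not pass were Fbxl5, the iron sensor that degrades IRP2, at 204 CPM in tumor and 327 CPM in spleen (-0.46 ± 0.20, adjusted p = 0.0641), and Trf, which encodes transferrin, at 109 CPM in tumor and 94.8 CPM in spleen (0.39 ± 0.16, adjusted p = 0.0548).

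**Figure D4:**
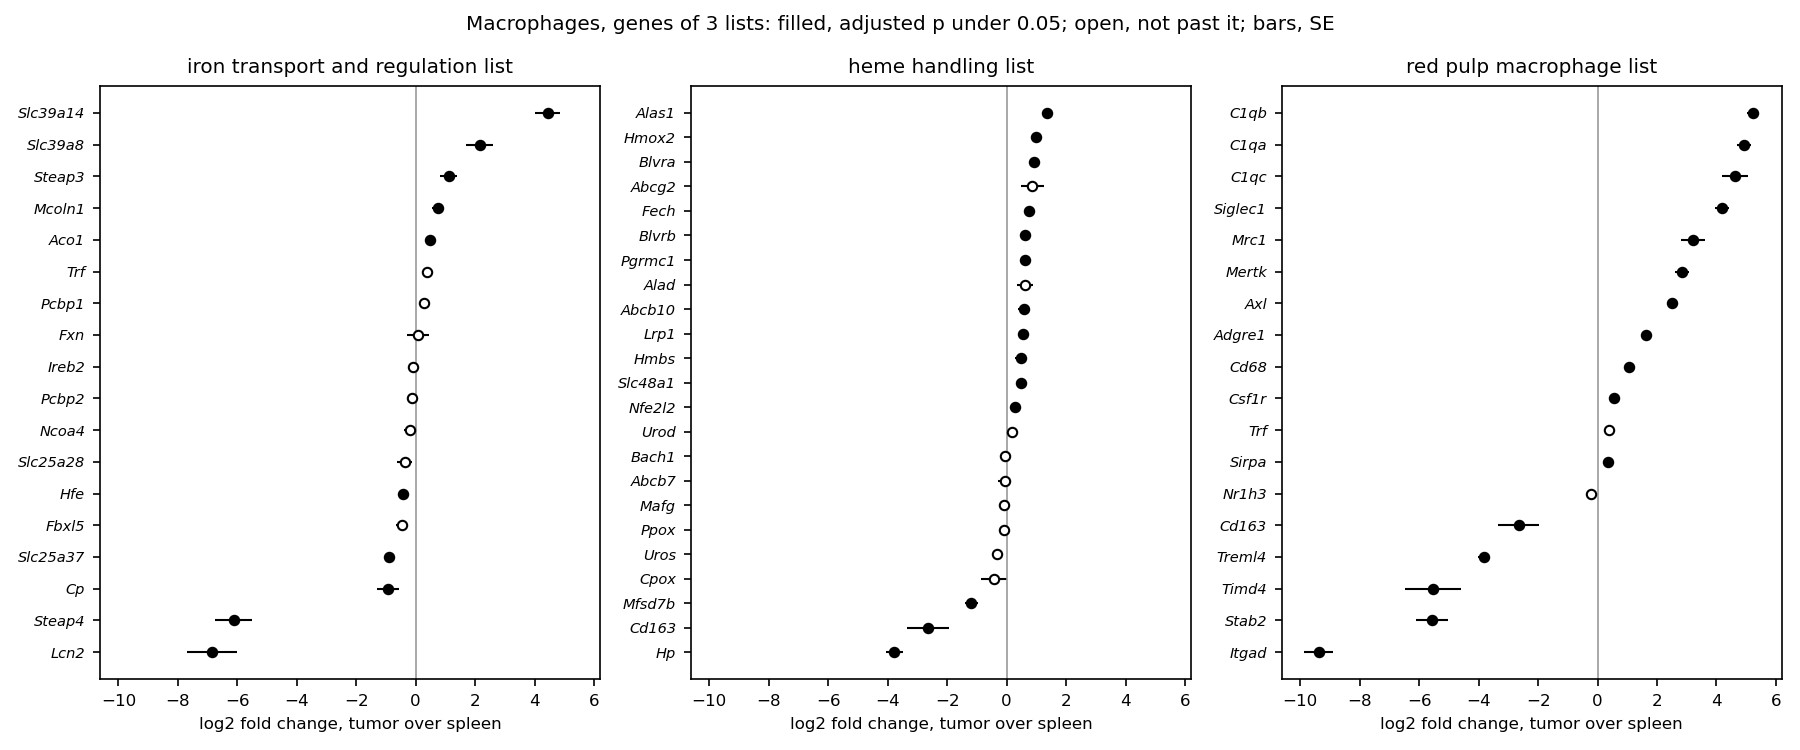
Log2 fold change of tumor over spleen in macrophages, with SE bars, for the tested genes of the iron transport, heme handling and red pulp macrophage lists, each ordered by its value. Filled points passed an adjusted p of 0.05. Complement genes lie at the top of the red pulp list (C1qb at 5.23) and Itgad, Stab2 and Timd4 at its foot (-9.38, -5.56 and -5.54).

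Of 23 heme handling genes tested in macrophages, 11 rose and 3 fell, where 23.9% of all genes were higher and 27.8% lower. Their median log2 fold change was 0.47 against -0.06 over all genes. Hmox2, the constitutive heme oxygenase gene, averaged 203 CPM in tumor and 119 CPM in spleen (0.97 ± 0.09, SE; edgeR adjusted p = 5.18e-08). Alas1, the first enzyme of heme synthesis, averaged 232 CPM in tumor and 107 CPM in spleen (1.35 ± 0.13), and Blvra, a biliverdin reductase gene, averaged 103 CPM in tumor and 64.0 CPM in spleen (0.92 ± 0.13). Hp, which encodes the hemoglobin-binding haptoglobin and is also a neutrophil granule gene, averaged 98.6 CPM in tumor and 1586 CPM in spleen (-3.78 ± 0.29). Mfsd7b, the heme exporter gene also called Flvcr1, averaged 19.2 CPM in tumor and 50.8 CPM in spleen (-1.19 ± 0.22). Cd163, the receptor for hemoglobin bound to haptoglobin, averaged 2.20 CPM in tumor and 18.5 CPM in spleen (-2.65 ± 0.69, adjusted p = 0.0044). Mafg, a partner of BACH1 at heme-responsive genes, averaged 128 CPM in tumor and 157 CPM in spleen and did not pass (-0.09 ± 0.14, adjusted p = 0.606). Haptoglobin, Lcn2 and Steap4 moved with the neutrophil markers of the spleen libraries given above, and the part of those markers was not tested.

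The red pulp macrophage list split in macrophages: of 18 tested genes 11 rose and 5 fell in tumor, where 23.9% of all genes were higher and 27.8% lower. The median log2 fold change of the list was 0.81 against -0.06 over all genes. The 5 genes that fell were Itgad, the integrin alpha D gene (0.0305 CPM in tumor and 39.7 CPM in spleen; -9.38 ± 0.49), Treml4 (26.3 CPM in tumor and 437 CPM in spleen; -3.83 ± 0.20), the scavenger receptor gene Stab2 (0.199 and 12.6 CPM; -5.56 ± 0.54), the phosphatidylserine receptor gene Timd4 (0.131 and 5.34 CPM; -5.54 ± 0.96) and Cd163. The genes that rose included C1qb at 4219.7 CPM in tumor and 135 CPM in spleen (5.23 ± 0.21) and C1qa at 2107 CPM in tumor and 82.0 CPM in spleen (4.94 ± 0.23), both complement genes. Siglec1, the sialoadhesin gene, averaged 175 CPM in tumor and 10.9 CPM in spleen (4.20 ± 0.24). Several members of this list, such as Adgre1, Csf1r and Cd68, are expressed by macrophages of many tissues, and Adgre1, which encodes F4/80, averaged 906 CPM in tumor and 342 CPM in spleen (1.63 ± 0.12).

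The NRF2 target list holds genes of the oxidant response pathway that also drives Hmox1 and ferritin. Over all genes 23.9% were higher and 27.8% lower in macrophages, and 24.4% and 22.7% in dendritic cells. These shares were 25.9% and 27.6% in regulatory, 16% and 11.2% in conventional CD4 and 22.5% and 19.6% in CD8 T cells. In macrophages 3 of 12 NRF2 targets rose and 4 fell (median log2 fold change -0.31 against -0.06 over all genes), which is near the shares of all genes. Prdx1, a peroxiredoxin gene, averaged 488 CPM in tumor and 246 CPM in spleen (1.22 ± 0.14, SE), and Gsr, the glutathione reductase gene, averaged 117 CPM in tumor and 949 CPM in spleen (-2.85 ± 0.26). The neutrophil markers were also lower in tumor than in spleen macrophages, and their part in the Gsr values was not tested. In dendritic cells 7 of 11 rose and 2 fell (median 1.20 against -0.04 over all genes), with Txn1, the thioredoxin gene, at 320 CPM in tumor and 157 CPM in spleen (1.37 ± 0.13). In regulatory T cells 7 of 11 rose and none fell (median 0.70 against -0.05), among them Srxn1, the sulfiredoxin gene, at 27.7 CPM in tumor and 0.927 CPM in spleen (5.10 ± 0.41). Among conventional CD4 T cells 4 of 11 rose and none fell (0.27 against 0.04), and in CD8 T cells 5 of 10 rose and 1 fell (0.34 against -0.01), with Txn1 at 269 CPM in tumor and 87.6 CPM in spleen (1.71 ± 0.13).

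In the other types the counts of the iron and heme lists are read against the shares of all genes called: 24.4% higher and 22.7% lower in dendritic cells, 25.9% and 27.6% in regulatory, 16% and 11.2% in conventional CD4 and 22.5% and 19.6% in CD8 T cells. In dendritic cells 7 of 18 iron genes rose and 4 fell (median log2 fold change 0.40 against -0.04 over all genes), Steap3 at 7.25 CPM in tumor and 0.182 CPM in spleen (5.35 ± 0.76, SE) and Trf at 63.4 CPM in tumor and 18.9 CPM in spleen (2.10 ± 0.31) among those that rose. Of 23 heme genes 13 rose and 3 fell (median 0.59), and Nfe2l2, which encodes NRF2 itself, averaged 288 CPM in tumor and 70.4 CPM in spleen (2.37 ± 0.10; edgeR adjusted p = 6.31e-10). Among regulatory T cells 1 of 15 iron genes rose and 3 fell (median -0.20 against -0.05), Trf at 8.61 CPM in tumor and 1.06 CPM in spleen (3.21 ± 0.46) being the gene that rose, and 8 of 21 heme genes rose and 5 fell (median 0.01), led by Mafg at 148 CPM in tumor and 35.8 CPM in spleen (2.29 ± 0.12). In conventional CD4 T cells 2 of 17 iron genes rose and 1 fell (median 0.18 against 0.04), and 2 of 21 heme genes rose and 3 fell (median -0.17). In CD8 T cells no iron gene rose and 1 of 15 fell (median -0.10 against -0.01), Ireb2, the IRP2 gene, at 91.5 CPM in tumor and 120 CPM in spleen (-0.31 ± 0.10). Of 20 heme genes in CD8 T cells 7 rose and 5 fell (median 0.04), Alad, an enzyme of heme synthesis, at 62.7 CPM in tumor and 34.2 CPM in spleen (0.97 ± 0.15) among those that rose.

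The age comparison asked whether 12-month and 3-month mice differ within each sorted type and tissue. No member passed in any of the 10 age comparisons or the 5 tests of whether the age effect differs between tissues. In most of these few genes of the whole table passed either: the share of all genes called was 0% in macrophages in both tissues, 0.593% in spleen and 0% in tumor dendritic cells, 0.0489% in spleen and 0% in tumor regulatory T cells, 3.92% in spleen and 0.0311% in tumor conventional CD4 T cells, and 1.02% in spleen and 0% in tumor CD8 T cells. For the interaction it was 0% in macrophages, dendritic cells and regulatory T cells, 0.668% in conventional CD4 and 0.143% in CD8 T cells. At an unadjusted p under 0.05 edgeR gave 2 of 10 tested members in spleen macrophages, 2 of 8 in tumor macrophages, 5 of 9 in spleen dendritic cells and 3 of 5 in spleen conventional CD4 T cells, and none in the other 6 age comparisons. For the interaction these counts were 2 of 10 in macrophages, 2 of 9 in conventional CD4 T cells and 0 in the other types. The share of all genes at that unadjusted level is not given here, so these counts do not set the members apart. DESeq2 called 1 member in spleen macrophages, 3 in spleen dendritic cells and 0 elsewhere. A p that misses the threshold does not show that the ages are alike.

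**Figure D5:**
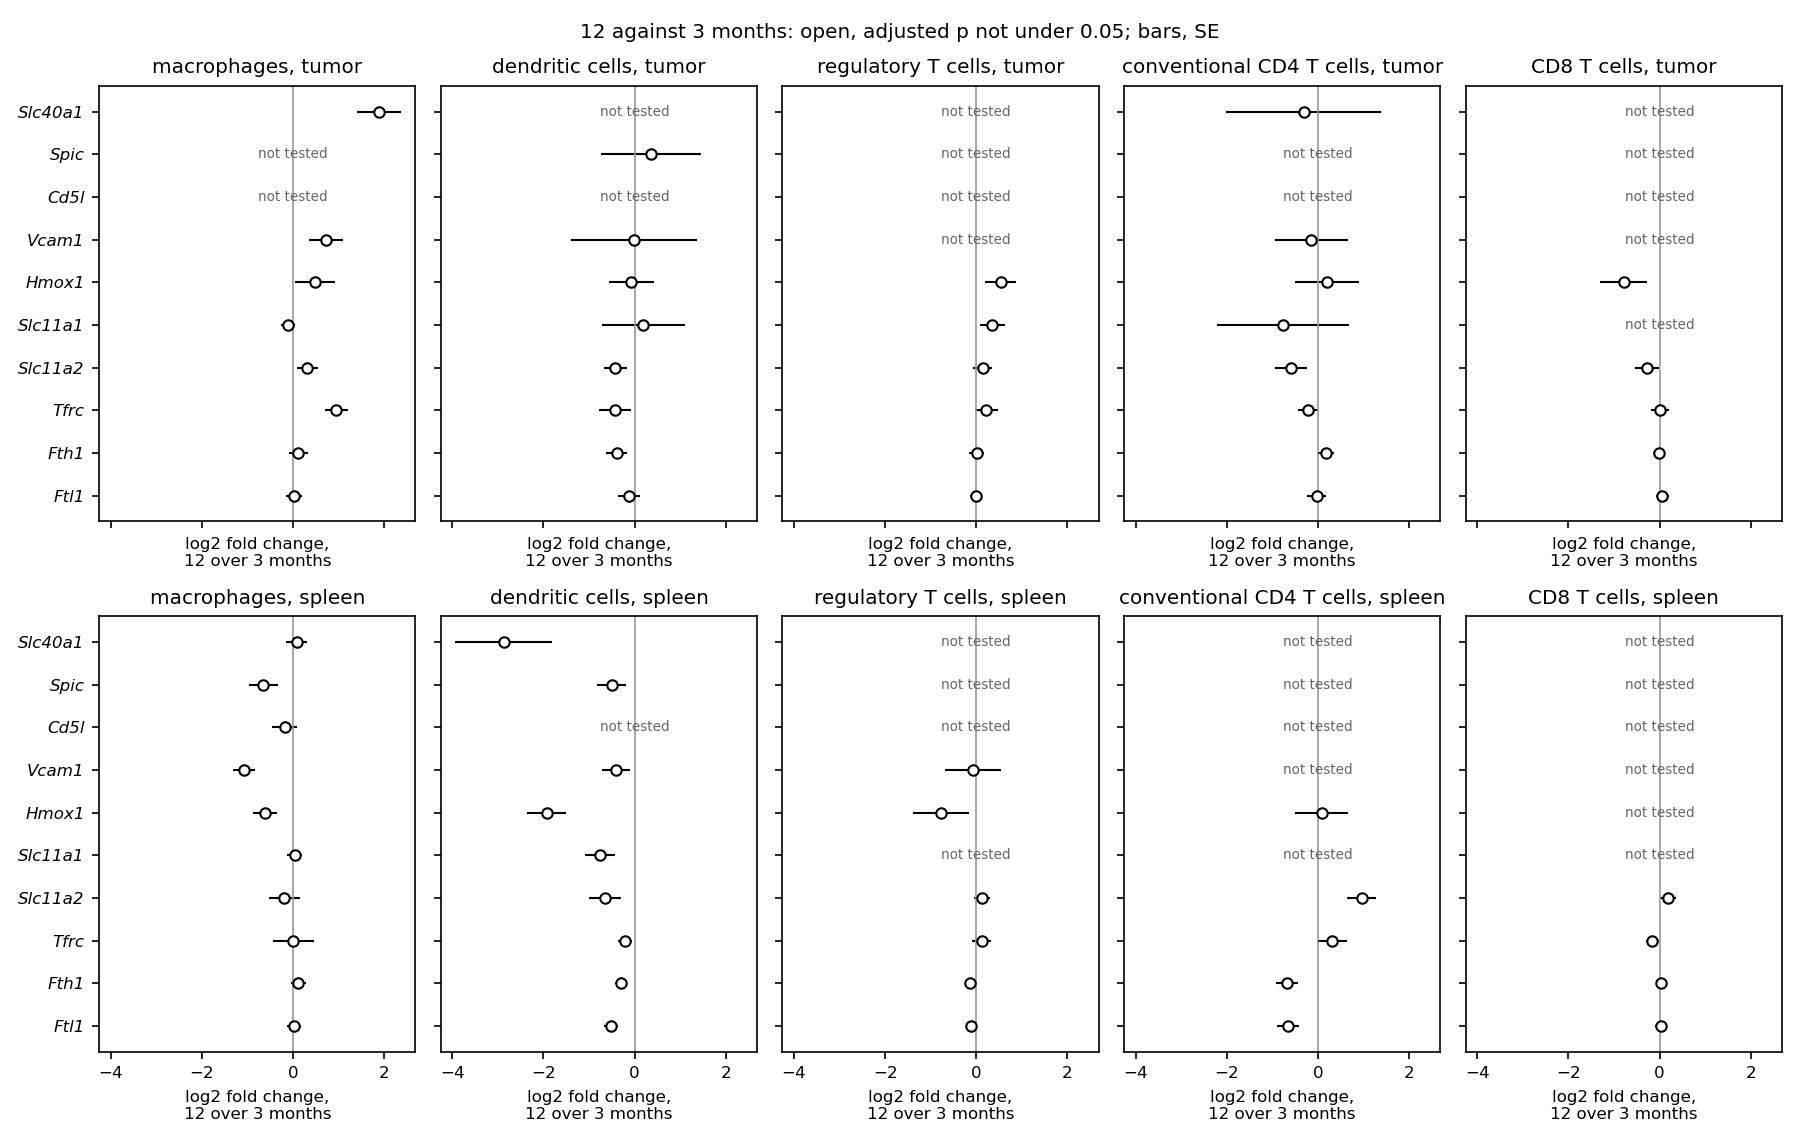
Log2 fold change of 12 over 3 months for the 10 genes in tumor (top) and spleen (bottom) of the 5 sorted types, with SE bars. All points are open because none passed an adjusted p of 0.05. The values farthest from 0 are Slc40a1 at 1.89 in tumor macrophages and at -2.88 in spleen dendritic cells, Hmox1 at -1.93 in spleen dendritic cells and Vcam1 at -1.08 in spleen macrophages.

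In spleen macrophages Vcam1 averaged 139 ± 50.6 CPM at 12 months and 307 ± 48.8 CPM at 3 months (SD, n = 4 each). The highest library at 12 months, at 203 CPM, was below the lowest at 3 months, at 244 CPM. The log2 fold change of Vcam1 was -1.08 ± 0.24 (SE; edgeR adjusted p = 0.698, unadjusted p = 0.00047). The summed neutrophil markers were between 11033 and 41295 CPM at 12 months and between 5572 and 15455 CPM at 3 months in the same libraries, and their part in the Vcam1 difference was not tested. In tumor macrophages Vcam1 averaged 79.0 ± 22.7 CPM in 12-month mice and 45.8 ± 24.1 CPM in 3-month mice (0.73 ± 0.37, adjusted p = 0.809). The difference between the tissues in the age effect of Vcam1 was 1.81 ± 0.48 (SE; edgeR adjusted p = 0.945).

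In tumor macrophages Slc40a1 averaged 26.9 ± 17.6 CPM at 12 months and 6.99 ± 3.60 CPM at 3 months (SD, n = 4 each). All 4 libraries at 12 months were above all 4 at 3 months, with 13.6 CPM the lowest at 12 months and 11.8 CPM the highest at 3 months. The log2 fold change was 1.89 ± 0.48 (SE; edgeR adjusted p = 0.771, unadjusted p = 0.00238). The neutrophil markers summed to between 251 and 1124 CPM at 12 months and between 184 and 505 CPM at 3 months, and their part was not tested. In spleen macrophages Slc40a1 averaged 628 ± 226 CPM at 12 months and 621 ± 69.3 CPM at 3 months (0.08 ± 0.23, adjusted p = 0.989). Tfrc in tumor macrophages was at 29.6, 22.4, 35.3 and 34.3 CPM at 12 months and at 13.9, 23.3, 12.5 and 10.8 CPM at 3 months, with an overlap of 1 library on each side (0.95 ± 0.25, SE; edgeR adjusted p = 0.771).

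In spleen dendritic cells Hmox1 averaged 9.89 ± 4.37 CPM at 12 months and 39.2 ± 23.8 CPM at 3 months (SD, n = 3 each), without overlap, and its log2 fold change was -1.93 ± 0.42 (SE; edgeR adjusted p = 0.0626). Slc40a1 was at 0.322, 0.586 and 6.79 CPM at 12 months and at 19.5, 5.56 and 7.36 CPM at 3 months in the same cells (-2.88 ± 1.06, SE; edgeR adjusted p = 0.314). Ftl1 was at 890, 1204 and 809 CPM at 12 months and at 1660, 1254 and 1260 CPM at 3 months, again without overlap (-0.52 ± 0.15, SE; edgeR adjusted p = 0.143). At 3 months 2 of the 3 libraries carry the conflicting age label, so the age of most of that group is uncertain.

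In spleen conventional CD4 T cells Slc11a2 was at 49.9, 31.6, 56.6 and 51.2 CPM at 12 months and at 16.4, 36.6 and 13.6 CPM at 3 months (0.96 ± 0.32, SE; edgeR adjusted p = 0.0922). Fth1 and Ftl1 had -0.68 ± 0.24 and -0.65 ± 0.23 (adjusted p = 0.119 and 0.120). The 2 ribosome-rich libraries at 3 months had the lowest Slc11a2 and the highest Fth1 and Ftl1 of the group, while replicate 3 lay within the 12-month range for all 3 genes. In regulatory and CD8 T cells the member with the smallest unadjusted p was Hmox1 in 3 of the 4 age comparisons, at -0.77 ± 0.61 in spleen regulatory T cells, 0.53 ± 0.34 in tumor regulatory T cells and -0.79 ± 0.52 in tumor CD8 T cells, with adjusted p values of 0.970, 0.999 and 1. Of the pathway genes, 5 passed in an age comparison. Adgre1, 1 of 13 red pulp genes tested, was higher at 12 months in spleen dendritic cells (1.12 ± 0.15, SE; edgeR adjusted p = 0.00654). There 0.593% of all genes passed. In spleen conventional CD4 T cells, where 3.92% passed, Mafg (1.41 ± 0.30), Axl (1.53 ± 0.38) and Mcm6 (0.89 ± 0.20) were higher and Taldo1 (-0.92 ± 0.25) lower at 12 months. These were 1 of 20 heme, 1 of 3 red pulp, 1 of 21 cell cycle and 1 of 10 NRF2 genes tested. Over all genes, the dendritic calls were lost with the other age label and most conventional CD4 calls without the ribosome-rich libraries. The 5 genes were read only from the fits with all libraries. In the test of the age effect between tissues Axl (-2.41 ± 0.49) and Rrm2 (-2.17 ± 0.52) passed in conventional CD4 T cells, where 0.668% of all genes did.

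The order of the 20 groups differed between genes. For Slc40a1 and Cd5l the 2 spleen macrophage groups came first, overlapping each other and apart from the next group. For Spic they were followed by spleen dendritic cells at 3 and then 12 months, each apart from the next. Slc11a1 ordered the groups by sorted type, with the 4 macrophage groups first and overlapping, then the 4 dendritic groups, then tumor regulatory T cells, with a gap after each of these steps. Fth1 put tumor macrophages and tumor dendritic cells first, at group means between 6244 and 9157 CPM, and spleen macrophages and spleen dendritic cells second, between 1861 and 2329 CPM. Tfrc ran almost the other way for macrophages, which took the last 4 places with group means between 15.1 and 30.4 CPM, while spleen dendritic cells led with 170 and 199 CPM. Slc11a2 had no gap anywhere in its order, which ran between 10.9 and 68.7 CPM.

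Across the 20 group means of log2(CPM + 1), Hmox1 and Slc11a1 ran closely together (Pearson r = 0.96) and so did Slc40a1 and Cd5l (0.93), while Tfrc ran against Hmox1 (-0.72). These are descriptions over groups that share a sorted type or a tissue, and no p is attached. Among 10597 genes that reached 10 CPM in at least 1 group, those whose group means followed Slc40a1 most closely were Il1f9, Lcn2, Chil1, Cyp2ab1 and Slco4c1, with r between 0.957 and 0.970. For Cd5l they were Pla2g2d, Ngp, Tubb1, Wfdc21 and Chrm3 (0.965 to 0.983), and for Spic they were Serpinb10, Il31ra, Nat8l, Hpgd and Asprv1 (0.941 to 0.961). Lcn2, Chil1, Ngp and Wfdc21 are known from neutrophils, whose markers were high in the same spleen macrophage libraries. For Hmox1 the list held the vacuolar ATPase genes Atp6ap1 and Atp6v0c together with Anxa5, Itgam and Stard8 (0.959 to 0.981), and for Slc11a1 it held Itgam, Rab31, Trf, Hpse and Adora2b (0.978 to 0.985). Fth1 was followed most closely by Ms4a7, C1qb, F11r, Rab3il1 and Phf11d (0.968 to 0.975), and Ftl1 by Creg1, Ms4a6c, Pid1, Plaur and Milr1 (0.968 to 0.982). Vcam1 had Ldlrad3, Adamdec1, Pstpip2, F5 and Agmo (0.946 to 0.967). The closest genes were less close for Tfrc (Lysmd2, Zfp207, Smc2, Cdc27 and Slc25a53, 0.873 to 0.912) and for Slc11a2 (B4galt7, Piga, Slc16a1, Snx4 and Slc12a7, 0.830 to 0.859).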

How the data were processed

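The deposited file gives raw counts per gene symbol for each library. STAR 2.5.3 and featureCounts on mm10 made these counts, per the submitters' processing notes, and for the annotation release, strand setting and reads with several hits the sources used here give nothing. CPM was computed here from library totals. Robust quasi-likelihood models (edgeR 4.0.16, limma 3.58.1, R 4.3.3) were fitted after filterByExpr and TMM scaling, with two-sided p-values and the Benjamini-Hochberg adjustment across each fit's whole gene table. Tumor against spleen and the age by tissue interaction used all 4 groups of a type, age used the 2 groups of a tissue, and dendritic fits had a term for sex. The fits were tested on simulated data. Groups follow the titles. The labels do not tie libraries to separate animals, so p-values measure the spread between these libraries, which may be technical. Of 103 replicate pairs 0 held identical counts. Libraries with the same number deviated together (correlation above 0.1 in every pair, with 3 or more pairs) only in tumor regulatory T cells across the ages, at 0.118 to 0.374. There a replicate block called 3 genes in place of 0, and no member. The text names the 10 members, up to 3 genes a list and direction past the threshold with smallest adjusted p, up to 2 abundant genes not past it, and the 5 genes most like each member. Timd4 and Cd163 in the red pulp list and Adgre1, Csf1r and Cd68 were added after their values were seen. The members and lists were chosen with earlier results of these data known. DESeq2 1.42.0, other scalings and filters, left-out libraries and the block were tried.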

Additional observations from a re-analysis of the deposited data

Results flagged for a closer look

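Of 147 sets of 4 libraries examined (10 genes by group), 19 had a highest or lowest library far from the other 3. The rule flags about 1 in 20 sets of normally distributed values. Counts near 0 are not so distributed, and a set with a count in 1 library and 0 in the other 3 is always flagged. The number flagged thus cannot be set against that rate. Each value below is that library's CPM. The tumor dendritic replicate 2 at 3 months, the library rich in macrophage markers, stood apart for Slc11a1 (218), Ftl1 (2523) and Vcam1 (53.5). Tumor macrophages at 3 months had a high replicate 4 for Hmox1 (931) and Spic (4.06), a high replicate 1 for Slc11a2 (32.0) and a high replicate 2 for Cd5l (3.27). In spleen macrophages at 3 months replicate 1 was low for Slc11a1 (402) and Cd5l (42.8). Tumor regulatory T cells had a low replicate 3 at 3 months for Slc11a2 (25.2), and single libraries with a trace of a gene that was at 0 in the other 3 libraries for Spic (0.150, replicate 1 at 12 months) and Cd5l (0.244, replicate 1 at 3 months). Spleen regulatory T cells at 12 months had a high replicate 2 for Hmox1 (3.81). The other such values lay at a few CPM: Slc40a1 in tumor conventional CD4 T cells at 12 months (6.66, replicate 2), the 12-month spleen conventional CD4 T cells for Slc11a1 (1.5, replicate 2), and, in CD8 T cells, Slc11a1 in tumor at 3 months (4.09, replicate 3), Slc11a1 in spleen at 12 months (1.94, replicate 2), Hmox1 in spleen at 3 months (2.74, replicate 1) and Vcam1 in spleen at 3 months (2.59, replicate 1).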

How the results depend on the processing

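The tumor against spleen calls of Slc40a1, Spic, Cd5l, Vcam1, Hmox1 and Fth1 in macrophages, of Fth1, Ftl1, Tfrc and Spic in dendritic cells, of Tfrc in conventional CD4, of Fth1 and Slc11a2 in CD8 and of the 7 called members in regulatory T cells held in every fit that tested them. Slc40a1 in regulatory T cells did not pass the low-count filter without spleen replicate 1 at 12 months and so had no test there. No called fold change changed sign. Of the members' fold changes under other settings, 954 kept their side of the threshold, 20 gained a call and 8 lost it. With 1 library left out these numbers were 1731, 17 and 17. Those that kept their side include fold changes past the threshold in neither fit, so the tally does not measure how stable the calls were. The cause of each change was not tested.
The counts that moved by over 1.5 times are given as genes called, with the value reported above in brackets. With library totals in place of TMM, chosen after seeing the data, they were 1 (0) for the interaction in regulatory T cells and 7 (4) for age in tumor conventional CD4 T cells. Under DESeq2 the counts over all genes were, for 12 against 3 months, 12 (0) in spleen and 3 (0) in tumor macrophages, 303 (75) and 2 (0) in dendritic cells, 26 (6) and 7 (0) in regulatory, 881 (460) and 40 (4) in conventional CD4 and 192 (119) and 12 (0) in CD8 T cells, spleen before tumor, and for the interaction 1 (0), 3 (0), 5 (0), 200 (98) and 48 (19) in the same order of types. DESeq2 called 1 member (0) in spleen macrophages, Vcam1, and 3 (0) in spleen dendritic cells.
Without a filter on low counts the spleen and tumor counts were 53 (0) and 43 (0), 425 (75) and 4 (0), 56 (6) and 41 (0), 839 (460) and 51 (4), and 192 (119) and 39 (0), and the interaction counts 5 (0), 50 (0), 13 (0), 261 (98) and 81 (19). Members then called numbered 1 (0) in spleen macrophages, tumor macrophages and the macrophage interaction, 3 (0) in spleen dendritic cells and 1 (0) in spleen conventional CD4 T cells. Slc40a1 in tumor macrophages then had 1.93 with an adjusted p of 2.8e-06 and Vcam1 in spleen macrophages -1.09 with 0.00012.
With all 4 groups in one fit the age counts were 0 (75) in spleen dendritic cells, 3 (6) in spleen and 3 (0) in tumor regulatory, 8 (4) in tumor conventional CD4, 75 (119) in spleen CD8 and 3 (0) in tumor CD8 T cells. In spleen dendritic cells the count was 47 (75) without the sex term, 0 (75) with the other age label and 342 (75) without the 2 libraries of conflicting age, where tumor against spleen gave 4375 (6583). Without the macrophage-rich libraries tumor dendritic cells gave 3 (0) and their interaction 4 (0). Without the ribosome-rich libraries conventional CD4 T cells gave 2465 (3990) for tumor against spleen, 43 (98) for the interaction and 79 (460) for age in spleen.
The replicate block was applied although only tumor regulatory T cells had a correlation above 0.1 in every same-number pair, a cut set here. The block gave 6 (0) in spleen macrophages, 5 (0) for the dendritic interaction, 153 (75) in spleen dendritic cells, 12 (6) in spleen and 3 (0) in tumor regulatory T cells, 116 (4) in tumor conventional CD4 T cells, 9 (0) in tumor CD8 T cells and 37 (19) for the CD8 interaction. It called 1 member (0), Slc11a2 at 1.18, in spleen conventional CD4 T cells, and in dendritic cells it gave Vcam1 -2.69 for tumor against spleen. Every library correlated best with its own number in both age comparisons of regulatory and CD8 T cells and in tumor conventional CD4 T cells. This hint of a pairing comes from the data only, and the age fits reported above do not use it.
With 1 library left out, members called for tumor against spleen numbered 7 to 8 in macrophages, 6 to 8 in dendritic cells, 6 to 7 in regulatory, 2 to 3 in conventional CD4 and 2 to 5 in CD8 T cells, and all genes 6390 to 6869, 5797 to 6560, 6838 to 7332, 2820 to 4517 and 5233 to 5733. For age in spleen, members numbered 0 to 3 in dendritic cells and in conventional CD4 T cells and 0 elsewhere, and all genes 0, 0 to 444, 2 to 8, 88 to 2400 and 72 to 138. For age in tumor no member was called and all genes numbered 0 to 2, 0, 0, 0 to 11 and 0 to 2. The interaction gave 0 to 2 members in conventional CD4 T cells and 0 elsewhere, and all genes 0 to 1, 0 to 2, 0 to 2, 24 to 640 and 12 to 29. The calls of Fth1, Ftl1 and Slc11a2 in spleen conventional CD4 T cells came without replicate 3 at 3 months (-0.94, -0.90 and 1.44).
Scaling by TMM moved 17 group levels by more than 1 SD and 183 by less, and ranking by Spearman's rho kept between 0 and 2 of the 5 closest genes of each member. Genes near 3 counts a library, among them Slc40a1, Spic and Cd5l in T cells, are limited by depth.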
